A study of Mus musculus with 24 samples.

Results

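Non-induced DP cells were compared with non-induced DN cells, both sorted from mouse embryoid bodies on day 6. The 3 DP and 3 DN arrays were taken by their titles and paired by replicate number, which gave 6 of the 24 arrays of the series. The other 18 hold the non-induced fractions CD41 sp and VE sp and the same 4 fractions after induction, with 3 arrays in each of the 8 groups. Every group came from Ainv15 embryonic stem cells that carry ICN1, the intracellular domain of the receptor Notch1, under doxycycline control, so DP and DN cells carry the construct too. In the induced groups ICN1 was switched on from day 3 to day 5, and in DP and DN as compared here it was not. The labels name the fractions by these abbreviations and give neither the antibodies nor the gates. All samples are of 1 stem cell line, and no label says that the replicates are separate cultures, so the p-values reflect only how much these arrays vary, which may be technical variation.

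Embryoid bodies are aggregates in which embryonic stem cells differentiate into derivatives of all germ layers, and blood and vessel cells arise in them together from mesoderm. CD41, the integrin alpha chain of the platelet fibrinogen receptor, appears on the earliest blood progenitors. VE-cadherin, the adhesion molecule of endothelial junctions, marks endothelium, and cells that carry both molecules are described as endothelial cells in transition to blood. Cells with neither molecule can include undifferentiated cells, mesenchyme, muscle, epithelium, endoderm and those red cells that have lost CD41.

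Itga2b, which encodes CD41, read 11.61, 11.21 and 11.29 in DP and 7.93, 8.19 and 7.95 in DN, and Cdh5, which encodes VE-cadherin, read 9.61, 9.50 and 10.13 in DP and 4.51, 4.60 and 4.60 in DN (replicates 1, 2 and 3 in order). These are log2 intensities after background correction and quantile normalization, on which an undetected probe lies near 4.5 and which compare 1 probe across arrays, never different probes. All 3 DP arrays lay above all 3 DN arrays for each gene. Itga2b was detected on all 3 DN arrays and Cdh5 on none of them. Itga2b differed by 3.35 ± 0.23 (adjusted p = 5.49e-10), and Cdh5 was at least 27.6-fold higher (adjusted p = 2.91e-13). Differences are log2 DP minus DN with limma's standard error and its Benjamini-Hochberg p adjusted over all genes tested. A gene is called at an adjusted p under 0.05, and a difference printed without its p is a called one. In comparisons of 2 groups, the difference of a gene detected on no array of a group is given only as at least so many fold. A higher signal can come from more cells that carry a transcript or from more RNA in each cell, and sorted bulk RNA cannot tell these apart.

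Of 9591 genes tested, 3774 (39.3%) differed between DP and DN at an adjusted p under 0.05, 1814 (18.9%) higher in DP and 1960 (20.4%) lower. The values of the 3 DP arrays did not overlap those of the 3 DN arrays for 3588 genes (37.4%). Differences of more than 4 log2 units were found for 53 higher and 24 lower genes. The mean raw intensity of the 6 arrays lay between 309.1 and 596.3, and 44.4% to 50.64% of the probes were detected on them. Without the replicate number as a block the count was 2122, 1072 higher and 1050 lower. With median scaling it was 1761, 996 higher and 765 lower (56.6% higher, beside 48.1%). The 15 largest rises held endothelial, platelet and white blood cell genes, and the 15 largest falls held red cell, epithelial, endoderm and stem cell genes. Most are described below with their groups. Of the others, Thsd1, a thrombospondin repeat protein, rose by 5.49 ± 0.20 (detected on 1 of 3 DN arrays), and Hapln1, the link protein of hyaluronan matrix, was at least 32.7-fold higher. Car4, a membrane carbonic anhydrase, differed by -4.54 ± 0.32 (detected on 1 of 3 DP arrays), and Smarca1, a chromatin remodelling ATPase, by -4.30 ± 0.30 (detected on 1 of 3 DP arrays).

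**Figure D1:**
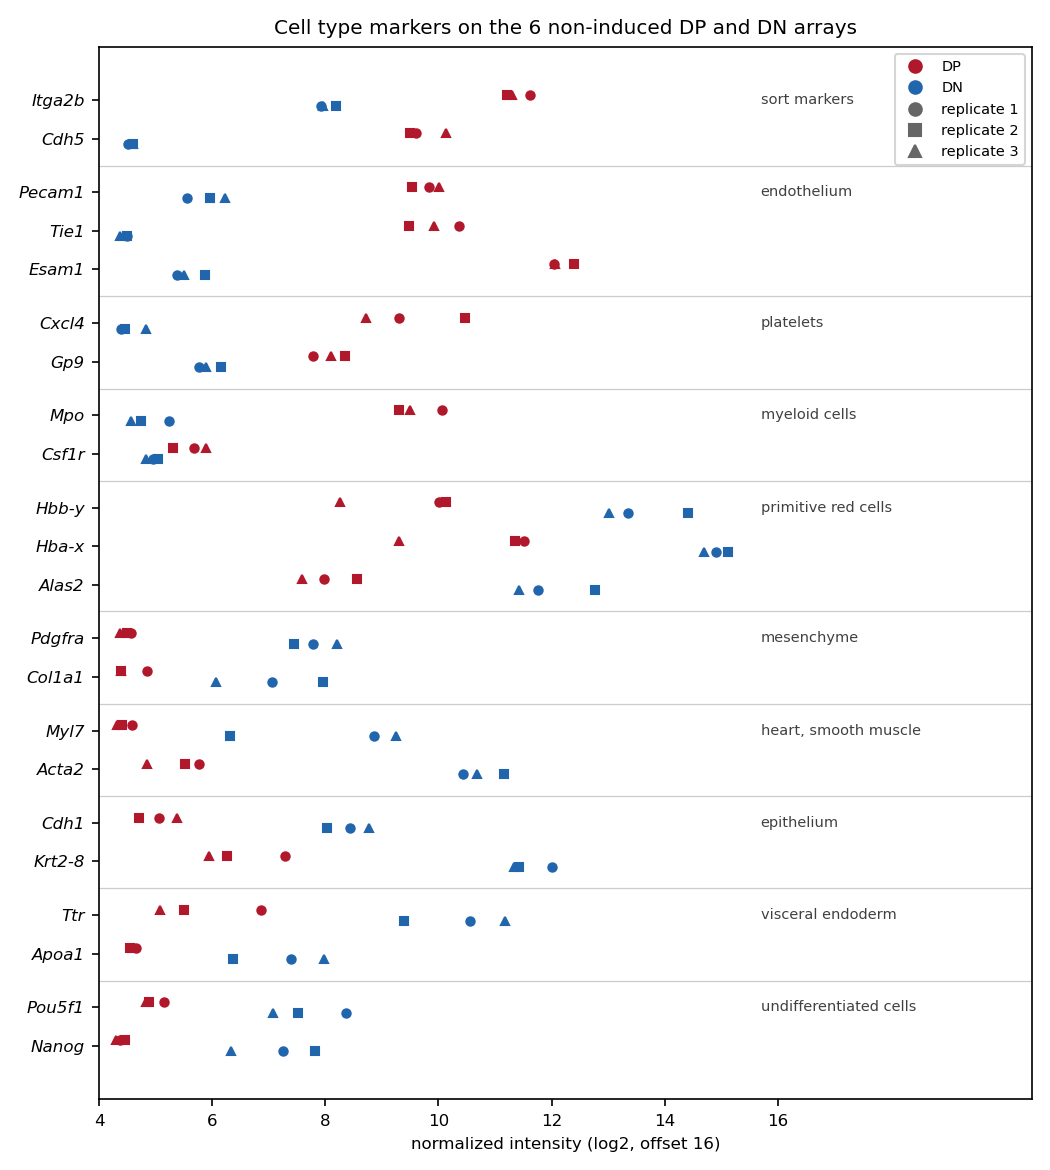
Normalized log2 intensity (x axis) of markers of each cell type, 1 row per gene, on the 3 DP arrays (red) and the 3 DN arrays (blue), with a symbol for each replicate. DP and DN values do not overlap in any row; DP points lie to the right for sort markers, endothelium, platelets and myeloid cells and to the left for red cells, mesenchyme, muscle, epithelium, endoderm and undifferentiated cells.

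Promoters of 5 genes are shown as examples of the gene groups described further on: the sort marker Itga2b, the endothelial receptor Tie1 and the platelet genes F2rl3 and Cxcl4, all higher in DP, and the heme synthesis gene Alas2, lower in DP. Each runs from 250 bases before to 50 after the start site, from RefSeq on GRCm38.p6. Capitals mark AGGAAG, a form of the site bound by ETS factors, and AGATAA, a form of the site bound by GATA factors, on either strand (CTTCCT and TTATCT are the same letters read from the other strand). No matches overlap in these promoters. Alas2 was chosen after its values were seen.
Itga2b, chr11:102469834-102470133, minus strand: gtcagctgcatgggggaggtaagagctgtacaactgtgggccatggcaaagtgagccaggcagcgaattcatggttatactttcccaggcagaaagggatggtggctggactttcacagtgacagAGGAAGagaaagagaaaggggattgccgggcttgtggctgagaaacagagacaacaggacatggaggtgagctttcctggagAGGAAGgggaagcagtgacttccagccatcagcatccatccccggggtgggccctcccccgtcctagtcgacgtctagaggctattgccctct
Tie1, chr4:118489800-118490099, minus strand: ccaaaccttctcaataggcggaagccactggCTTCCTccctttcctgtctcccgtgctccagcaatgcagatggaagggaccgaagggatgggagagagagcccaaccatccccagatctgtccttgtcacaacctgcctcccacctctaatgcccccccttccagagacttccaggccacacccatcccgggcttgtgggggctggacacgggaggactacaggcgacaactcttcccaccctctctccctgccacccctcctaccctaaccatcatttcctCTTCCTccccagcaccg
F2rl3, chr8:72761409-72761708, plus strand: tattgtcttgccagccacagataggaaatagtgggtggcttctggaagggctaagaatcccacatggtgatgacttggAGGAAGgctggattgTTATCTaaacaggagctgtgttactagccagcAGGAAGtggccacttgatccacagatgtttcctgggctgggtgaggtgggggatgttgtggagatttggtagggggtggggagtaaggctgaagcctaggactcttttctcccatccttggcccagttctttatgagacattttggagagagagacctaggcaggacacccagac
Cxcl4, chr5:90772185-90772484, plus strand: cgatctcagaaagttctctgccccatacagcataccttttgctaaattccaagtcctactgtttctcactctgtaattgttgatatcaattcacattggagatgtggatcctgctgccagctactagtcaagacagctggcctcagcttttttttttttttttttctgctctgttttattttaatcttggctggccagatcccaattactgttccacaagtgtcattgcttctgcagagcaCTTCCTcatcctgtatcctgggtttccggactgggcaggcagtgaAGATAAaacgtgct
Alas2, chrX:150547167-150547466, plus strand: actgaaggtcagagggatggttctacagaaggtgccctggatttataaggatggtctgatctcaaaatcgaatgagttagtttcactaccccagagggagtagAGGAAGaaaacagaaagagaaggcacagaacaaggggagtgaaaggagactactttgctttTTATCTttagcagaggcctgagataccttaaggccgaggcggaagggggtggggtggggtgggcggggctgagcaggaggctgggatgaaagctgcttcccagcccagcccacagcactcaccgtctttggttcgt

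Each gene with a promoter entry was counted once, as holding the letters where any of its promoters of that length did. Array symbols absent from the entries were matched by synonym, which gave Cdh1 the promoter of Fzr1 and Trf that of Trh. Some matches may thus be of another gene. AGGAAG stood in 38.4% of all 27025 genes with an entry and in 37.3% of the 7362 matched to tested genes. Among genes higher in DP it stood in 634 of 1390 (45.6%), and among genes lower in DP in 477 of 1469 (32.5%). It was found in 13 of 18 platelet genes (72.2%), 13 of 18 blood cell adaptors (72.2%), 7 of 12 endothelial receptors and 6 of 19 erythroid genes (31.6%). AGATAA stood in 12.7% of all genes with an entry and 7.7% of those matched to tested genes. It was found in 5 of 18 platelet genes (27.8%), 5 of 19 erythroid ones (26.3%) and 0 of 10 endothelial transcription factors. These are counts of letters, with no test, and a match is not a bound site.

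Endothelial junction and surface genes were higher in DP. Of 16 measured, 13 were higher and 1 lower, with a median difference of 3.62 (3.33 with undetected members at their bound) against -0.04 over all genes tested. Esam1, an adhesion molecule of endothelial and platelet junctions, read 12.05, 12.39 and 12.06 in DP and 5.38, 5.87 and 5.49 in DN. Pecam1, the adhesion molecule CD31, read 9.83, 9.53 and 10.004 in DP and 5.54, 5.95 and 6.22 in DN. On both the lowest DP array stood more than 3 log2 units above the highest DN array. The differences were 6.59 ± 0.28 (adjusted p = 4.74e-13) for Esam1 and 3.88 ± 0.25 (adjusted p = 2.29e-10) for Pecam1. C1qr1, the surface protein CD93, differed by 4.95 ± 0.28 (detected on 1 of 3 DN arrays), Cldn5, the claudin of tight endothelial junctions, by 4.36 ± 0.39 (detected on 1 of 3 DN arrays), and Eng, a co-receptor for TGF-beta, by 4.17 ± 0.22 (detected on 2 of 3 DN arrays). Cd34, a sialomucin of vessels and blood progenitors, was at least 21.3-fold higher. Podxl, another sialomucin, stood at 0.37 ± 0.18 (adjusted p = 0.12) and was not called, but it was without DP array 3 (adjusted p = 0.0264). Cgnl1, the junction protein paracingulin, was the member called lower at -0.57 ± 0.20 (adjusted p = 0.026, detected on 1 of 3 DP arrays), a call lost without DP array 2 or 3 (adjusted p = 0.0949 and 0.195) or DN array 1 or 3 (adjusted p = 0.0551 and 0.159).

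Among receptors of endothelium, 15 of 19 measured were higher and 0 lower, with a median of 1.88. Of the 19, 10 were not detected on any DN array and so could be called only higher. Tie1, a receptor tyrosine kinase of the angiopoietin pathway, read 10.36, 9.47 and 9.92 in DP and 4.50, 4.49 and 4.37 in DN, and was at least 31.1-fold higher (adjusted p = 4.35e-14). Its relative Tek, which binds angiopoietins, read 12.01, 11.08 and 11.39 in DP and 7.77, 8.10 and 7.95 in DN, a difference of 3.55 ± 0.23 (adjusted p = 2.2e-10). The groups lay apart for both kinases, and Tie1 was not detected on any DN array while Tek was detected on all. Flt1, a receptor and decoy for VEGF, differed by 3.52 ± 0.26 (adjusted p = 1.38e-09). Xlkd1, the hyaluronan receptor known as Lyve1, was at least 28-fold higher, Ptprb, the phosphatase VE-PTP that binds VE-cadherin, at least 10.3-fold higher, and Robo4, a guidance receptor of vessels, at least 6.68-fold higher. Agtrl1, the apelin receptor, differed by 2.58 ± 0.26 and Flt4, a receptor for lymphatic VEGF ligands, was at least 2-fold higher. Calcrl, the calcitonin receptor-like receptor, was at least 1.24-fold higher (adjusted p = 0.00643, detected on 2 of 3 DP arrays), a call lost without DP array 2 (adjusted p = 0.0607). Nrp2, a co-receptor for VEGF and semaphorins, stood at -0.50 ± 0.28 (adjusted p = 0.172) and was not called, and neither were Stab2, Procr and Acvrl1. Kdr, the main VEGF receptor, did not pass the filter on detection and was not tested.

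Transcription factors of endothelium followed a similar count, with 15 of 21 higher, 1 lower and a median of 1.93. Sox18, a SoxF factor of vessel development, read 11.15, 11.63 and 11.41 in DP and 5.08, 5.04 and 4.69 in DN. It was detected on 2 of 3 DN arrays, and every DP value lay more than 6 log2 units above every DN value. The difference was 6.46 ± 0.19 (adjusted p = 8.58e-15). Sox7 and Sox17, the other SoxF factors, differed by 1.93 ± 0.37 (adjusted p = 0.000281) and 1.36 ± 0.35 (adjusted p = 0.00449, detected on 2 of 3 DN arrays). Etsrp71, the ETS factor Etv2 that starts the blood and endothelial programme in mesoderm, read 11.51, 11.71 and 12.49 in DP and 9.83, 9.58 and 9.95 in DN. It was bright on all 6 arrays, without overlap, and differed by 2.12 ± 0.22 (adjusted p = 1.76e-07). The ETS factors Elk3, Ets2 and Fli1 differed by 3.52 ± 0.19, 2.98 ± 0.15 and 2.95 ± 0.39 (detected on 1 of 3 DN arrays), and Ets1 by 2.29 ± 0.26 (its other probes 0.24 and 0.71). Rasip1, a Ras-interacting protein of vessel lumens, was at least 41.7-fold higher, and Bcl6b, a repressor of the Bcl6 family, at least 11.5-fold higher. Hhex, a homeobox factor of blood, endothelium and endoderm, differed by 1.18 ± 0.18 (adjusted p = 2.25e-05) and Prox1, the factor of lymphatic fate, by -1.29 ± 0.23 (adjusted p = 0.000164). Foxc2, a forkhead factor of mesoderm and vessels, was detected on 0 of 3 DP and 2 of 3 DN arrays and was not called (adjusted p = 0.0831), but was called lower without DN array 2 (adjusted p = 0.0266). Epas1, the hypoxia factor HIF-2 alpha, was not detected on any of the 6 arrays.

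Hemostasis and vessel tone genes were mixed, with 7 of 14 higher and 2 lower, beside 18.9% and 20.4% of all genes tested. Alox5ap, the protein that presents arachidonate to the leukotriene pathway, read 11.72, 11.91 and 12.75 in DP and 5.79, 5.89 and 5.96 in DN, and led them at 6.25 ± 0.23 (adjusted p = 8.04e-14). Its values did not overlap, and it was detected on every array. Mmrn2, an extracellular matrix protein of endothelium, was at least 8.76-fold higher, Ptgs1, a cyclooxygenase, at least 6.4-fold higher, and Thbd, the thrombin-binding anticoagulant receptor, at least 4.37-fold higher. Vwf, the platelet-binding protein of endothelium, differed by 1.82 ± 0.37 (detected on 1 of 3 DN arrays) and Nos3, the endothelial nitric oxide synthase, by 1.44 ± 0.36 (detected on 2 of 3 DN arrays). Ptgis, the prostacyclin synthase, was lower at -0.94 ± 0.17.

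**Figure D2:**
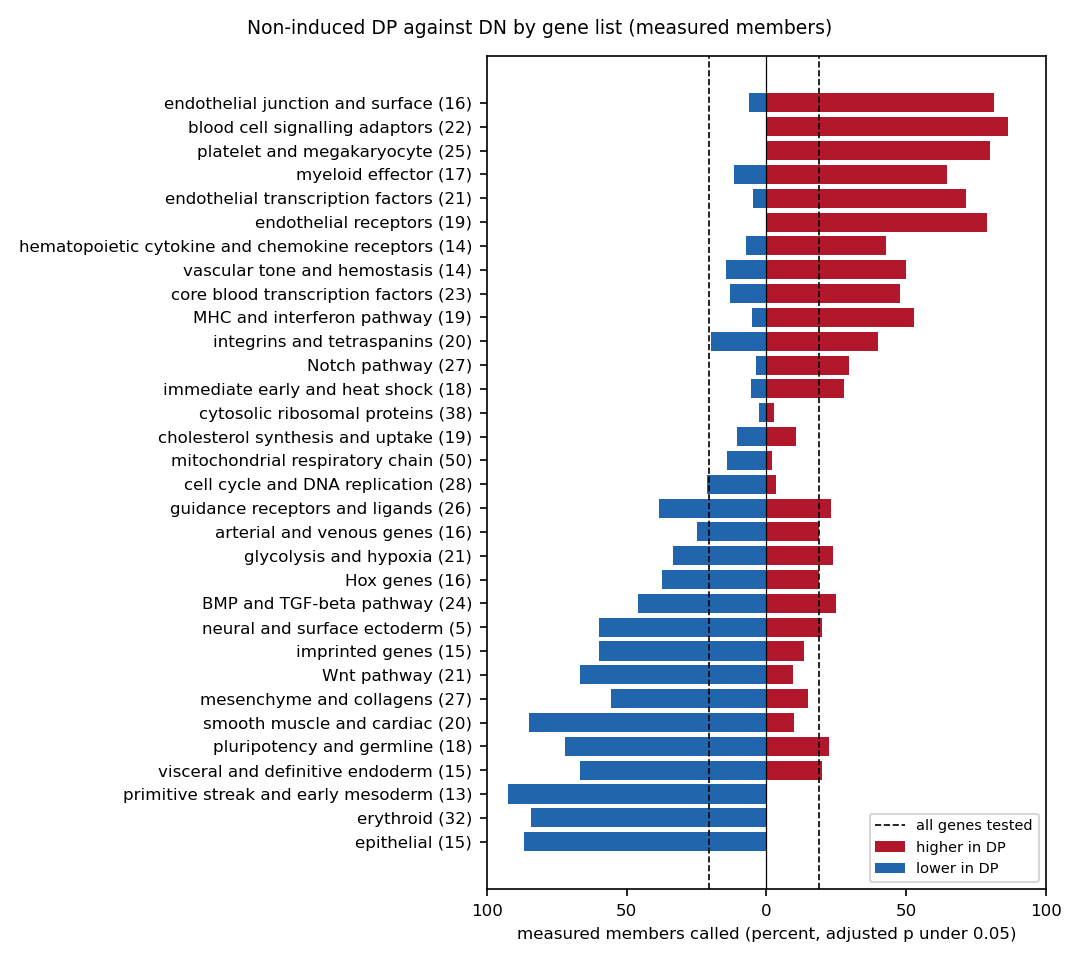
Share of the measured members of each gene list that were called higher (red, to the right) or lower (blue, to the left) in DP than in DN, in percent, with the number measured in brackets and lists ordered by median difference. The dashed lines give the shares over all genes tested, 18.9% higher and 20.4% lower; endothelial, adaptor and platelet lists reach furthest right, and primitive streak, epithelial, muscle and erythroid lists furthest left.

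Signalling adaptors and cytoskeletal regulators of blood cells were higher in DP for 19 of 22 measured genes and lower for 0. Their median was 3.04 (2.86 with undetected members at their bound). Of the 22, 6 were not detected on any DN array and so could be called only higher. Sla, an adaptor that dampens antigen receptor signals, read 11.25, 11.59 and 11.31 in DP and 5.93, 5.79 and 5.50 in DN. Laptm5, a lysosomal membrane protein of blood cells, read 13.68, 14.03 and 13.83 in DP and 9.66, 9.85 and 9.89 in DN. The groups were far apart for both, although Laptm5 was also well detected in DN. They differed by 5.65 ± 0.35 (adjusted p = 1.08e-10, its other probes 2.08 and 2.98) and 4.05 ± 0.16 (adjusted p = 1.75e-13). Plek, the platelet kinase substrate pleckstrin, differed by 5.05 ± 0.26, Dok2, a docking protein of blood cell kinases, by 4.75 ± 0.26, and Was, the actin regulator mutated in Wiskott-Aldrich syndrome, by 3.79 ± 0.21. Gmfg, an actin-branch regulator of white cells, differed by 4.30 ± 0.19. Grap2, an adaptor of T cells and platelets, was not called at 0.36 ± 0.25 (adjusted p = 0.273). Ptprc, the pan-leukocyte surface protein CD45, did not pass the filter on detection.

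Platelet and megakaryocyte genes were higher for 20 of 25 and lower for 0, with a median of 2.14. Of the 25, 11 were not detected on any DN array and so could be called only higher. F2rl3, the thrombin receptor PAR4, read 10.80, 11.64 and 11.34 in DP and 5.38, 5.32 and 5.32 in DN. Cxcl4, the granule chemokine PF4, read 9.30, 10.47 and 8.72 in DP and 4.38, 4.45 and 4.83 in DN. DP array 2 was the highest for both genes, the groups did not overlap, and Cxcl4 was not detected on any DN array. F2rl3 differed by 5.92 ± 0.24 (adjusted p = 2.98e-13), and Cxcl4 was at least 23.2-fold higher (adjusted p = 5.23e-08). The mean log2 level over the 25 genes was 7.45, 8.24 and 7.46 in DP and 5.00, 5.21 and 5.15 in DN. F13a1, coagulation factor XIII, was at least 23.9-fold higher. Gp5, a subunit of the platelet receptor for von Willebrand factor, differed by 3.80 ± 0.27 (detected on 2 of 3 DN arrays). Tubb1, the beta-tubulin of platelets, was not called at 0.63 ± 0.34 (adjusted p = 0.163, detected on 2 of 3 DP arrays, detected on 2 of 3 DN arrays), nor was the adhesion receptor Selp at 0.54 ± 0.26 (adjusted p = 0.107). Both were called in a fit of only the 6 arrays and in one with array weights (adjusted p = 0.00981 and 0.0378 for Tubb1, 0.0231 and 0.021 for Selp).

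Of 17 measured myeloid genes, 11 were higher and 2 lower, with a median of 2.05 (1.71 with undetected members at their bound), while 15 others on the list did not pass the filter on detection. Ccl3, a chemokine of macrophages, read 9.86, 10.26 and 10.50 in DP and 4.66, 4.63 and 4.54 in DN, and was at least 38-fold higher (adjusted p = 3.3e-11). Lyz, a lysozyme, read 9.65, 10.31 and 10.38 in DP and 4.59, 4.79 and 5.00 in DN, and was at least 35.7-fold higher (adjusted p = 5.93e-14). Neither was detected on any DN array, and all DP values were high. The array has a second symbol, Lyzs, for a closely similar lysozyme, so the probes may read each other's transcripts. Mpo, the myeloperoxidase of granules, differed by 4.77 ± 0.22 (detected on 1 of 3 DN arrays, its other probes 2.79 and 2.26), and Fcgr3, an Fc receptor for IgG, was at least 10.3-fold higher. Csf1r, the receptor for macrophage colony-stimulating factor, read 5.68, 5.31 and 5.88 in DP and 4.94, 5.03 and 4.82 in DN. The DP values lay above the DN values by little, and the difference of 0.69 ± 0.28 (adjusted p = 0.0544, detected on 2 of 3 DN arrays) was not called, though it was without DN array 2 (adjusted p = 0.0375). Ncf4, a subunit of the phagocyte oxidase, went the other way at -2.63 ± 0.25 (adjusted p = 3.75e-08).

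Receptors for blood cytokines were less uniform, with 6 of 14 higher and 1 lower, beside 18.9% and 20.4% of all genes tested. Csf3r, the receptor for granulocyte colony-stimulating factor, was at least 3.91-fold higher, and Il2rg, the common gamma chain, at least 3.29-fold higher. Ifngr1, a subunit of the interferon-gamma receptor, differed by 1.20 ± 0.21. Epor, the erythropoietin receptor, read 7.49, 6.99 and 7.69 in DP and 9.65, 9.23 and 8.69 in DN, and was lower at -1.80 ± 0.23 (adjusted p = 2.12e-06). No DP value reached the lowest DN value. Csf2rb2, Il4ra and Il10rb, all receptor chains, were not called. Il4ra was called higher in a fit of only the 6 arrays and in one with array weights (adjusted p = 0.0484 and 0.0137). Csf2ra, a chain of the receptor for granulocyte-macrophage colony-stimulating factor, and the chemokine receptor Cxcr4 were not called either. Csf2ra was called higher in DP without DP array 3 (adjusted p = 0.0465) or DN array 3 (0.0444). Cxcr4 was called lower in DP without DN array 2 (adjusted p = 0.037). Kit was not analysed here.

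Transcription factors of blood held higher, lower and uncalled members. Of 23 measured, 11 were higher and 3 lower, with a median of 0.58. Sfpi1, the myeloid factor PU.1, read 7.12, 6.72 and 7.06 in DP and 4.61, 4.70 and 4.73 in DN, and was at least 4.01-fold higher (adjusted p = 1.34e-06). Runx1, required for blood formation from endothelium, read 8.88, 9.24 and 7.66 in DP and 6.64, 7.08 and 6.83 in DN, a difference of 1.75 ± 0.33 (adjusted p = 0.000296). Lmo2, a bridging subunit of blood and endothelial complexes, read 12.45, 13.19 and 12.46 in DP and 11.21, 11.13 and 10.95 in DN, a difference of 1.60 ± 0.14 (adjusted p = 1.88e-08). The groups did not overlap for any of the 3, and DP array 3 was the lowest for Runx1. Meis1, a Hox cofactor, differed by 2.29 ± 0.33 and Bcl11a, a repressor of globin genes, by 2.16 ± 0.26. Lyl1, a relative of Tal1, differed by 1.98 ± 0.20 and Etv6, an ETS repressor, by 1.18 ± 0.21.

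Several factors of the same complexes did not pass the test. Tal1, the basic helix-loop-helix factor that starts blood formation, read 10.73, 10.36 and 11.07 in DP and 10.63, 10.21 and 10.45 in DN, and Gata2, the GATA factor of progenitors, read 9.70, 9.03 and 8.96 in DP and 9.41, 8.67 and 9.05 in DN. DP and DN values overlapped for both, with differences of 0.29 ± 0.18 (adjusted p = 0.215) and 0.19 ± 0.27 (adjusted p = 0.622). Zfpm1, the GATA cofactor FOG1, stood at 0.16 ± 0.17 (adjusted p = 0.51), Nfe2, a factor of platelet and globin genes, at 0.30 ± 0.20 (adjusted p = 0.243), Gfi1b at 0.01 ± 0.25 (adjusted p = 0.985) and Ikzf1 at 0.02 ± 0.22 (adjusted p = 0.958). Gfi1, the related repressor of myeloid progenitors, was higher at 1.11 ± 0.23 (adjusted p = 0.000535). Myb, a factor of definitive blood progenitors, was not called at 0.66 ± 0.32 (adjusted p = 0.112, detected on 2 of 3 DP arrays, detected on 1 of 3 DN arrays), but it was in a fit of only the 6 arrays and in one with array weights (adjusted p = 0.0134 and 0.0202).

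The 3 blood transcription factors called lower in DP were Gata1, Klf1 and Mllt3, of which Gata1 and Klf1 are also on the erythroid list. Gata1, the GATA factor of red cells and platelets, read 6.36, 6.48 and 7.24 in DP and 8.42, 8.63 and 8.54 in DN, and Klf1, the activator of globin and red cell genes, read 7.82, 7.47 and 7.94 in DP and 11.69, 11.76 and 11.37 in DN. Every DP value lay below every DN value for both. The differences were -1.84 ± 0.23 (adjusted p = 2.45e-06) and -3.86 ± 0.25 (adjusted p = 2.83e-10), and that of Mllt3, a subunit of the elongation complex, was -3.08 ± 0.23 (adjusted p = 1.93e-09, its other probes -0.70 and -4.31). Of 32 measured erythroid genes, 0 were higher and 27 lower, with a median of -2.51 and mean levels of 7.96, 8.02 and 7.74 in DP and 10.33, 10.93 and 10.18 in DN.

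Embryonic globins were lower yet still bright in DP. Hbb-y, the epsilon-like beta-globin of primitive red cells, read 10.01, 10.14 and 8.25 in DP and 13.35, 14.42 and 13.02 in DN. Hba-x, the zeta-globin, read 11.52, 11.35 and 9.30 in DP and 14.91, 15.12 and 14.69 in DN. All DP arrays were below all DN arrays, and DP array 3 was the lowest for both. They differed by -4.13 ± 0.33 (adjusted p = 4.33e-09) and -4.19 ± 0.42 (adjusted p = 8.96e-08). Globin probes may read near-identical family members, so their separate sizes are uncertain. Slc4a1, the anion exchanger of the red cell membrane, differed by -5.63 ± 0.48 (detected on 2 of 3 DP arrays), Eraf, the alpha-globin chaperone, by -5.06 ± 0.36, and Alas2, whose promoter is shown above, the first enzyme of heme synthesis in red cells, by -3.95 ± 0.29. Trim10, a red cell maturation protein, differed by -4.25 ± 0.26. Car2, a cytosolic carbonic anhydrase, was not called at 0.37 ± 0.29 (adjusted p = 0.328), nor was the spectrin gene Spnb1 at -0.11 ± 0.46 (adjusted p = 0.883).

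Notch receptors and modifiers were measured without induction of ICN1. Of 27 pathway genes, 8 were higher and 1 lower and 18 were not called, with a median of 0.24 (0.16 with undetected members at their bound). The share called was 33.3%, beside 39.3% over all genes tested. Mfng, a fringe enzyme that modifies Notch receptors, read 9.88, 10.62 and 9.91 in DP and 4.75, 4.48 and 4.47 in DN, and was at least 36.2-fold higher (adjusted p = 1.4e-12, its other probe 2.18). Notch1 read 8.88, 9.27 and 9.32 in DP and 6.63, 6.97 and 7.54 in DN, a difference of 2.12 ± 0.20 (adjusted p = 4.33e-08). Nrarp, a feedback inhibitor and target of Notch, read 9.63, 8.98 and 10.20 in DP and 8.08, 7.31 and 7.48 in DN, a difference of 1.98 ± 0.20 (adjusted p = 9.4e-08). DP values were higher than DN values on every array for all 3. Whether the Notch1 probe also reads the ICN1 construct was not analysed here.

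Notch4, an endothelial Notch receptor, differed by 2.44 ± 0.26 (adjusted p = 2.4e-07, its other probe 0.08), so that its probes did not give the same size. Notch3, the receptor of vessel wall cells, was the only measured member called lower, at -1.45 ± 0.24 (adjusted p = 5.22e-05, detected on 2 of 3 DP arrays). Jag2, a ligand, was higher at 0.70 ± 0.15 (adjusted p = 0.000949, detected on 1 of 3 DN arrays) and Psen2, a protease subunit, at 1.28 ± 0.16 (adjusted p = 1.36e-06). The ligand Dll4 and the target Heyl were not detected on any of the 6 arrays. Hes1, another target, stood at -0.56 ± 0.26 (adjusted p = 0.101), and its relative Hes6 at 0.24 ± 0.15 (adjusted p = 0.212). Neither was called, but Hes1 was in a fit of only the 6 arrays and in one with array weights (adjusted p = 0.0172 and 0.0327). Hey1, a repressor of the same family as Hes1, read 8.73, 6.26 and 7.63 in DP and 8.71, 7.50 and 8.69 in DN. The groups overlapped and the difference of -0.76 ± 0.31 (adjusted p = 0.0584) was not called, but it was without DP array 1 (adjusted p = 0.00662). Ncstn, a subunit of the protease that releases ICN1, was higher by 0.35 ± 0.14 (its other probes 0.09 and 0.12), and Adam17, the protease that acts before it, by 0.30 ± 0.11. The Ncstn call was lost without any single array but DP array 3 (adjusted p = 0.0762 to 0.265), and the Adam17 call without any single array of the 6 (adjusted p = 0.063 to 0.113).

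Arterial and venous genes did not move as a group, with 3 of 16 higher, 4 lower and a median of -0.29. Over all genes tested 18.9% were higher and 20.4% lower. Gja4, the connexin 37 of arterial endothelium, read 11.62, 12.38 and 10.91 in DP and 5.81, 5.59 and 4.91 in DN, a difference of 6.20 ± 0.27 (adjusted p = 5.49e-13, detected on 2 of 3 DN arrays). Every DP value was at least 5 log2 units above every DN value. Ephb4, the venous ephrin receptor, differed by 0.55 ± 0.16 (adjusted p = 0.00823), a call lost without DN array 1 (adjusted p = 0.0582). The arterial ephrin Efnb2 stood at -0.30 ± 0.29 (adjusted p = 0.446, detected on 2 of 3 DP arrays) and was not called. Cxcl12, a chemokine of arterial and stromal cells, was lower at -2.95 ± 0.30 (adjusted p = 1.19e-07, detected on 2 of 3 DP arrays, its other probe -0.49), as were Unc5b, a netrin receptor, at -1.54 ± 0.24 (adjusted p = 2.65e-05) and Gja1, connexin 43, at -1.08 ± 0.21 (adjusted p = 0.000287).

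Genes of other lineages were higher in DN. Among 15 measured epithelial genes 0 were higher in DP and 13 lower, with a median of -2.97 (-2.50 with undetected members at their bound) and mean levels of 5.57, 5.27 and 5.27 in DP and 7.86, 7.49 and 8.04 in DN. Cdh1, the epithelial cadherin, read 5.06, 4.70 and 5.37 in DP and 8.44, 8.03 and 8.77 in DN, and Krt2-8, keratin 8, read 7.29, 6.26 and 5.94 in DP and 12.02, 11.42 and 11.33 in DN. DP and DN did not overlap, with differences of -3.37 ± 0.21 (adjusted p = 1.38e-10, detected on 2 of 3 DP arrays) and -5.09 ± 0.28 (adjusted p = 2.1e-11). Krt1-18, keratin 18, differed by -5.18 ± 0.28 (detected on 1 of 3 DP arrays) and Cldn6, a claudin of early epithelia, by -4.64 ± 0.33 (detected on 1 of 3 DP arrays). Rbm35a, the splicing regulator Esrp1, was at least 8.51-fold lower.

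Visceral and definitive endoderm genes were lower for 10 of 15 and higher for 3. Ttr, the thyroxine carrier, read 6.87, 5.51 and 5.08 in DP and 10.56, 9.39 and 11.17 in DN, and Apoa1, an apolipoprotein of visceral endoderm, read 4.66, 4.54 and 4.60 in DP and 7.40, 6.37 and 7.97 in DN. DN values lay above DP values for both, and Apoa1 was not detected in DP. Ttr differed by -4.55 ± 0.43 (adjusted p = 5e-08, detected on 2 of 3 DP arrays), and Apoa1 was at least 4.82-fold lower (adjusted p = 1.8e-08). Spink3, a trypsin inhibitor, varied among DP arrays at 8.45, 6.44 and 4.82 and differed by -4.88 ± 0.63 (adjusted p = 3.19e-06, detected on 2 of 3 DP arrays). The members higher in DP were Trf, transferrin, at 2.58 ± 0.20 (detected on 1 of 3 DN arrays), Apoe, a lipid carrier also made by macrophages, at 0.78 ± 0.18, and Sox17, given above.

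Of 13 primitive streak and early mesoderm genes, 0 were higher and 12 lower, with a median of -1.98 (-1.43 with undetected members at their bound). Of the 13, 9 were not detected on any DP array and so could be called only lower, and 8 other listed genes did not pass the filter on detection. T, the mesoderm factor brachyury, read 4.79, 4.42 and 4.57 in DP and 8.43, 7.73 and 7.03 in DN, and Cdx2, a caudal homeobox factor, read 5.09, 4.62 and 4.62 in DP and 9.40, 8.84 and 9.14 in DN. T was not detected in DP and Cdx2 on 1 DP array, while both were on all DN arrays. T was at least 6.75-fold lower (adjusted p = 1.73e-08), and Cdx2 differed by -4.35 ± 0.16 (adjusted p = 8.83e-14, detected on 1 of 3 DP arrays). Fgf8, a growth factor of the streak, was at least 3.7-fold lower, and Evx1, a homeobox factor of posterior streak, differed by -2.58 ± 0.22 (detected on 2 of 3 DP arrays).

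Pluripotency genes were lower for 13 of 18 and higher for 4, with a median of -1.39 (-1.38 with undetected members at their bound). Pou5f1, the stem cell factor Oct4, read 5.15, 4.87 and 4.83 in DP and 8.36, 7.51 and 7.07 in DN, and Nanog read 4.36, 4.46 and 4.30 in DP and 7.26, 7.81 and 6.33 in DN. DN values were higher throughout, Nanog was not detected in DP, and Pou5f1 was detected on 1 DP array. Pou5f1 differed by -2.69 ± 0.28 (adjusted p = 1.67e-07, detected on 1 of 3 DP arrays), and Nanog was at least 4.46-fold lower (adjusted p = 5.63e-05). Dppa5 and Trh, a stem cell RNA-binding protein and a hormone precursor, differed by -5.38 ± 0.30 (adjusted p = 2.65e-11, detected on 2 of 3 DP arrays) and -5.41 ± 0.34 (adjusted p = 1.5e-10, detected on 1 of 3 DP arrays). Of the members higher in DP, Klf2, also a flow-induced endothelial factor, differed by 2.06 ± 0.38, the membrane protein Ifitm3 by 1.48 ± 0.16 and the DNA methyltransferase Dnmt3b by 1.37 ± 0.17. Klf4, a relative of Klf2, differed by 1.16 ± 0.40 (adjusted p = 0.0255), a call lost without DP array 1 or 2 (adjusted p = 0.132 and 0.0655) or DN array 1 or 3 (adjusted p = 0.178 and 0.0566).

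Heart and smooth muscle genes were lower for 17 of 20 and higher for 2. Acta2, smooth muscle actin, read 5.76, 5.51 and 4.84 in DP and 10.44, 11.16 and 10.69 in DN, and Myl7, an atrial myosin light chain, read 4.58, 4.41 and 4.30 in DP and 8.86, 6.31 and 9.24 in DN. The groups did not overlap, although Myl7 was lower on DN array 2 than on the other DN arrays. Acta2 differed by -5.39 ± 0.35 (adjusted p = 1.81e-10, detected on 2 of 3 DP arrays), and Myl7 was at least 8.94-fold lower (adjusted p = 4.69e-06). Actc1, cardiac actin, differed by -4.07 ± 0.34 (detected on 1 of 3 DP arrays, its other probe -1.67) and Isl1, a homeobox factor of heart precursors, by -3.35 ± 0.37 (detected on 1 of 3 DP arrays). The members higher in DP were Mef2c, a factor shared by heart and endothelium, at 2.80 ± 0.31 (its other probes 1.20 and 2.61), and Mylk, the myosin light chain kinase, at least 3.88-fold higher.

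Mesenchyme and matrix genes were lower for 15 of 27 and higher for 4, with a median of -0.84 (-0.63 with undetected members at their bound). Pdgfra, the growth factor receptor of mesenchyme, read 4.56, 4.49 and 4.36 in DP and 7.78, 7.44 and 8.21 in DN, and Col1a1, the chain of fibrillar collagen, read 4.84, 4.39 and 4.39 in DP and 7.05, 7.96 and 6.06 in DN. DP lay at or near the undetected level for both. Pdgfra was at least 7.13-fold lower (adjusted p = 1.88e-11), and Col1a1 differed by -2.48 ± 0.27 (adjusted p = 3.32e-07, detected on 1 of 3 DP arrays). Col18a1, a basement membrane collagen and source of endostatin, was high throughout at 13.59, 14.36 and 13.54 in DP and 10.89, 11.48 and 11.29 in DN, and was higher in DP by 2.61 ± 0.16 (adjusted p = 7.42e-11). Vim, the filament protein vimentin, differed by 1.96 ± 0.26 and Sparc, a matrix-binding glycoprotein, by 1.02 ± 0.22. Col4a1 and Lamc1, of vascular and other basement membranes, were not called. Lamc1 was called lower in DP without DP array 1 (adjusted p = 0.0195) or DN array 1 (adjusted p = 0.0204).

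Markers of other cell types thus differed across the same 6 arrays as the endothelial and blood genes. Of all genes tested, 5.2% were not detected on any DP array and 4.8% on any DN array. A gene passes the filter through any group where it is detected, so a gene undetected in 1 of the 2 groups can be called only 1 way. In DP 6 of 15 epithelial, 5 of 15 endoderm, 9 of 27 mesenchyme, 7 of 20 muscle, 9 of 13 streak and 5 of 18 pluripotency genes were not detected on any array. The mean level over the list was 6.32 to 6.57 in DP and 7.15 to 7.48 in DN for mesenchyme, 5.57 to 5.79 in DP and 6.90 to 7.57 in DN for muscle, 5.72 to 6.29 in DP and 6.79 to 7.85 in DN for endoderm, 4.74 to 4.92 in DP and 6.52 to 7.15 in DN for the streak and 6.22 to 6.59 in DP and 7.39 to 7.97 in DN for pluripotency genes. Only 5 neural and surface ectoderm genes passed the filter on detection, of which 1 was higher and 3 lower, with levels of 5.31 to 5.42 in DP and 5.90 to 6.68 in DN. Conversely 11 of 25 platelet, 7 of 17 myeloid and 10 of 19 endothelial receptor genes were not detected on any DN array, and the mean level of the myeloid list was 7.52 to 7.95 in DP and 5.46 to 5.71 in DN. The part of the makeup of each fraction in the differences of any single gene was not tested.

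Hox genes, which pattern the body axis in the order of their paralogue numbers, held members of both directions. Of 16 measured, 3 were higher and 6 lower, beside 18.9% and 20.4% of all genes tested, with a median of -0.35 (-0.13 with undetected members at their bound). Hoxb5 read 10.35, 9.24 and 9.55 in DP and 8.42, 7.06 and 8.05 in DN, a difference of 1.87 ± 0.28 (adjusted p = 2.44e-05) without overlap, and Hoxb4 differed by 1.26 ± 0.30 (adjusted p = 0.00227). Hoxc6 read 4.57, 4.42 and 4.34 in DP and 7.11, 6.88 and 7.54 in DN, and Hoxc9 read 4.53, 4.38 and 4.93 in DP and 7.57, 7.56 and 7.79 in DN. The 2 Hoxc genes were not detected in DP and were well detected on all DN arrays. Hoxc6 was at least 4.59-fold lower (adjusted p = 4.44e-10) and Hoxc9 at least 6.35-fold lower (adjusted p = 7.24e-12), and Hoxd9 differed by -1.61 ± 0.22 (adjusted p = 5.79e-06, detected on 1 of 3 DP arrays). Hoxa7 was at least 1.43-fold lower (adjusted p = 0.00256). Hoxd4 was higher by 0.65 ± 0.22 (adjusted p = 0.0225), a call lost without DP array 1 (adjusted p = 0.121) or DN array 1 or 2 (adjusted p = 0.117 and 0.0668). Hoxb7 was lower at -0.85 ± 0.27 (adjusted p = 0.0167, detected on 2 of 3 DP arrays), lost without DP array 2 or 3 (adjusted p = 0.0575 and 0.143), and Hoxa2 at -0.57 ± 0.22 (adjusted p = 0.046, detected on 1 of 3 DP arrays, detected on 2 of 3 DN arrays), lost without DP array 1 or 3 (adjusted p = 0.105 and 0.218) or DN array 1 or 3 (adjusted p = 0.0751 and 0.216).

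**Figure D3:**
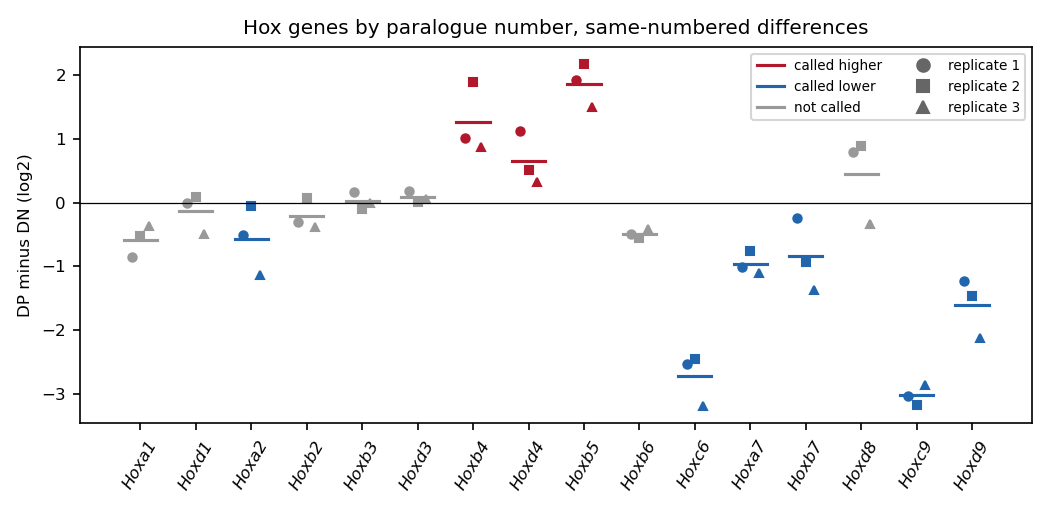
DP minus DN difference (log2, y axis) of the 16 measured Hox genes in order of paralogue number, with a symbol for each replicate pair and a bar for the fitted difference. Hoxb4, Hoxd4 and Hoxb5 lie above 0 in all 3 pairs, and Hoxc6, Hoxc9 and Hoxd9 lie below -1 in all 3; undetected values make the lower differences smaller than they may be.

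Imprinted genes, expressed from 1 parental copy and many of them regulators of growth, were lower for 9 of 15 and higher for 2. Phlda2, a growth-restraining gene of placenta, read 6.07, 5.24 and 5.11 in DP and 11.06, 10.85 and 11.89 in DN, the largest fall of any gene with more than a clone name, at -5.79 ± 0.42 (adjusted p = 9.07e-10, detected on 2 of 3 DP arrays). Dlk1, a transmembrane protein related to Notch ligands, read 7.41, 5.95 and 5.05 in DP and 10.12, 10.27 and 9.72 in DN, and was lower at -3.91 ± 0.51 (adjusted p = 3.77e-06, detected on 2 of 3 DP arrays). DP and DN did not overlap, and DP values of Dlk1 were spread over more than 2 log2 units. Cdkn1c, the cell cycle inhibitor p57, differed by -1.58 ± 0.23 and Igf2r, the receptor that clears IGF2, by -1.39 ± 0.18. Mest was higher at 1.00 ± 0.22.

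The Wnt pathway was lower in DP for 14 of 21 genes and higher for 2, with a median of -0.76 (-0.70 with undetected members at their bound). Of the 21, 5 were not detected on any DP array and so could not be called higher, and 1 was not on any DN array. Wnt5a, a ligand of the planar polarity branch, read 5.26, 5.37 and 4.92 in DP and 8.71, 8.28 and 8.47 in DN, and Axin2, an inhibitor and target of beta-catenin signalling, read 5.32, 4.85 and 5.03 in DP and 7.78, 7.59 and 7.24 in DN. No DP value reached a DN value. They differed by -3.30 ± 0.28 (adjusted p = 9.86e-09, detected on 2 of 3 DP arrays, its other probe -1.48) and -2.47 ± 0.32 (adjusted p = 3.84e-06, detected on 1 of 3 DP arrays). The target Sp5 was at least 5.36-fold lower and the co-receptor Ror2 at least 3.71-fold lower, and the receptor Fzd2 differed by -2.72 ± 0.26 (detected on 1 of 3 DP arrays). Fzd10, another receptor, was higher at 1.02 ± 0.25.

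In the BMP and TGF-beta pathway 6 of 24 genes were higher and 11 lower, beside 18.9% and 20.4% of all genes tested. The median was -0.47 (-0.39 with undetected members at their bound). Of the 24, 6 were not detected on any DP array and so could not be called higher, and 3 were not on any DN array. The higher members included Eng, given above, Tgfbr2, the type II receptor, at 2.89 ± 0.19 (adjusted p = 3.66e-10, its other probe 0.88), and Tgfb1, the ligand, at 2.69 ± 0.22 (adjusted p = 5.01e-09). Tgfb1 read 10.64, 10.33 and 9.69 in DP and 7.76, 7.87 and 6.97 in DN, with no overlap. The lower members included Bmp4, the mesoderm-inducing ligand, which read 8.60, 7.90 and 8.65 in DP and 10.87, 10.50 and 10.53 in DN and differed by -2.25 ± 0.22 (adjusted p = 5.7e-08). Bmp7 was at least 2.43-fold lower, the antagonist Fst at least 2.42-fold lower, and the targets Id2 and Idb3, inhibitors of basic helix-loop-helix factors, differed by -2.06 ± 0.34 (its other probe -0.77) and -1.54 ± 0.32 (detected on 2 of 3 DP arrays). Tgfb2, another ligand, differed by -2.34 ± 0.22. The common receptor Tgfbr1 was not called at 0.08 ± 0.13 (adjusted p = 0.667, its other probe -0.04).

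Guidance genes were mixed, with 6 of 26 higher and 10 lower (61.5% called, beside 39.3% over all genes tested). Plxnd1, the semaphorin receptor of vessels, was at least 7.05-fold higher. The ephrins Efnb1 and Efna5 were lower at -2.42 ± 0.24 (adjusted p = 8.21e-08) and -2.42 ± 0.16 (adjusted p = 3.12e-10), the receptor Ephb2 was at least 2.7-fold lower, and the ligand Sema3f differed by -1.91 ± 0.22. Of 20 integrins and tetraspanins, 8 were higher and 4 lower, beside 18.9% and 20.4% of all genes tested. Itga6, a laminin receptor, differed by 2.04 ± 0.29 (detected on 1 of 3 DN arrays), and Itgb3, the beta chain that pairs with CD41, by 1.19 ± 0.29 (adjusted p = 0.00298, detected on 2 of 3 DN arrays). Itgb5, a vitronectin receptor chain, read 5.51, 5.75 and 5.92 in DP and 8.58, 9.19 and 9.02 in DN, and was lower at -3.20 ± 0.14 (adjusted p = 4.74e-13) with no overlap. Itgb1, the common beta chain, was not called at 0.09 ± 0.21 (adjusted p = 0.771).

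Among genes of translation, energy metabolism and the cell cycle, 1 ribosomal protein gene was higher and 1 lower of 38 (5.26%, beside 39.3% over all genes). Respiratory chain genes gave 1 higher and 7 lower of 50, cholesterol genes 2 and 2 of 19, and cell cycle genes 1 and 6 of 28. Within the cell cycle list, Cdkn2a, the inhibitor locus p16 and p19, was higher at 1.75 ± 0.25 (adjusted p = 1.27e-05, its other probe 0.15), and Ccne1, the cyclin of S phase entry, and Cdc6, a replication licensing factor, were lower at -1.39 ± 0.26 (adjusted p = 0.000195) and -1.12 ± 0.14 (adjusted p = 2.08e-06, its other probe -0.47). Mcm5 and Mcm4, of the replicative helicase, stood at -0.17 ± 0.15 (adjusted p = 0.412) and 0.10 ± 0.17 (adjusted p = 0.69). Glycolysis and hypoxia genes gave 5 higher and 7 lower of 21, beside 18.9% and 20.4% of all genes tested. Among them were Egln3, an oxygen-sensing hydroxylase (1.59 ± 0.15), Vegfa, the main ligand of vessel growth (-1.33 ± 0.16), and Slc2a1, the glucose transporter of red cells and many others (-1.14 ± 0.25).

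Interferon and antigen presentation genes were higher for 10 of 19 and lower for 1. Tap2, a peptide transporter, differed by 1.94 ± 0.30 (detected on 2 of 3 DN arrays). Ifi30, a lysosomal thiol reductase, was lower at -2.09 ± 0.20 (adjusted p = 4.17e-08). Immediate early and heat shock genes gave 5 higher and 1 lower of 18 (33.3% called, beside 39.3% over all genes tested). Their medians were 1.03, -0.03 and -0.07 in replicate pairs 1, 2 and 3. Without the replicate block 2 were higher and 0 lower. Zfp36, which destabilizes cytokine mRNAs, was higher at 2.21 ± 0.31 (adjusted p = 8.47e-06), and Ddit3, a factor of the stress response to unfolded proteins, lower at -1.91 ± 0.34 (adjusted p = 0.000143). Egr1 read 10.95, 10.24 and 10.55 in DP and 9.75, 11.92 and 11.26 in DN. DN array 1 stood below the other DN arrays, the groups overlapped, and the difference of -0.40 ± 0.47 (adjusted p = 0.543) was not called, though it was without DN array 1 (adjusted p = 0.0376).

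To ask which differences set DP apart from its neighbours as well as from DN, DP was also compared with VE sp and CD41 sp. These comparisons share the DP arrays, so their values are given side by side. Against VE sp 2064 genes (21.5%) differed, 966 (10.1%) higher and 1098 (11.4%) lower. The third VE sp array was dim, with a mean raw intensity of 164.7, and 1688 genes were called without it. Against CD41 sp 2568 genes (26.8%) differed, 1271 (13.3%) higher and 1297 (13.5%) lower. Median scaling, which moved the median of all genes against VE sp from 0.05 to 0.30, called 455 higher and 300 lower against VE sp (60.3% higher, beside 46.8%) and 563 higher and 337 lower against CD41 sp (62.6%, beside 49.5%). Without the block the counts were 979 and 1181.

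Many endothelial receptors were lower in DP than in VE sp and higher than in CD41 sp. Of 19 endothelial receptors, 11 were lower and 0 higher than in VE sp, and 15 were higher and 0 lower than in CD41 sp. Without the dim array, 10 were lower and 0 higher than in VE sp. Cdh5 itself differed from VE sp by -0.73 ± 0.21 (adjusted p = 0.016), and was not called without that array (-0.51, adjusted p = 0.125). Sox7 stood at 8.12 ± 1.00 in DP, beside 11.04 ± 0.29 in VE sp, 4.75 ± 0.46 in CD41 sp and 6.19 ± 0.60 in DN (mean ± SD, n = 3), and Sox17 at 6.89 ± 0.56 in DP, beside 9.98 ± 0.55 in VE sp, 4.42 ± 0.06 in CD41 sp and 5.53 ± 0.55 in DN. Sox17 was not detected on any CD41 sp array, and DP lay between VE sp and the other fractions for both. The DP to VE sp differences were -2.93 ± 0.37 (adjusted p = 5.42e-06) and -3.09 ± 0.35 (adjusted p = 2.03e-06). Sox18 did not follow them, at 11.39 ± 0.24 in DP, beside 11.60 ± 0.29 in VE sp, 6.82 ± 0.12 in CD41 sp and 4.93 ± 0.21 in DN, and differed from VE sp by -0.20 ± 0.19 (adjusted p = 0.507), which was not called. Hey1 differed from VE sp by -3.27 ± 0.31 (adjusted p = 2.26e-07) and Notch4 by -2.38 ± 0.26 (adjusted p = 1.13e-06), but Mfng was not called at -0.10 ± 0.25 (adjusted p = 0.851).

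Most platelet genes stood above VE sp and, counted separately, most stood below CD41 sp. Of 25, 20 were higher and 0 lower in DP than in VE sp, and 3 were higher and 15 lower than in CD41 sp. Of 32 erythroid genes 0 were higher and 31 lower than in CD41 sp, and 12 were higher and 1 lower than in VE sp. Without the dim VE sp array 21 platelet genes were higher and 0 lower than in VE sp, and 11 erythroid genes higher and 1 lower. Klf1 stood at 7.74 ± 0.24 in DP, beside 6.63 ± 0.57 in VE sp, 11.19 ± 0.38 in CD41 sp and 11.61 ± 0.21 in DN, so that CD41 sp and DN were the bright fractions. Gata1 followed at 6.69 ± 0.47 in DP, beside 5.11 ± 0.48 in VE sp, 9.20 ± 0.32 in CD41 sp and 8.53 ± 0.11 in DN. Runx1 exceeded VE sp by 2.49 ± 0.33 (adjusted p = 1.28e-05, detected on 2 of 3 VE sp arrays) and was not called against CD41 sp at 0.17 ± 0.33 (adjusted p = 0.755). Tal1, not called against DN, exceeded VE sp by 0.71 ± 0.18 (adjusted p = 0.00655) and differed from CD41 sp by -0.60 ± 0.18 (adjusted p = 0.0179).

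**Figure D4:**
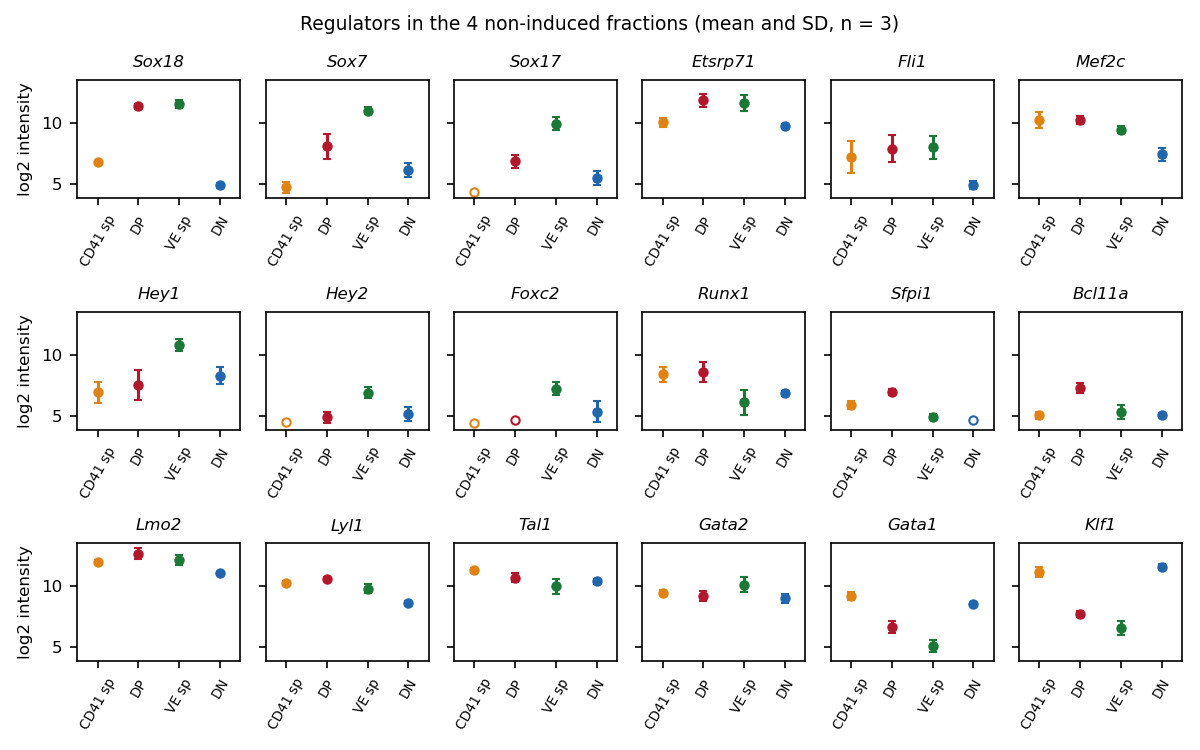
Mean log2 intensity with SD (y axis, n = 3) of 18 transcription regulators in the non-induced fractions CD41 sp, DP, VE sp and DN; open circles mark fractions where no array detected the gene. DP lies with VE sp for Sox18, Etsrp71 and Fli1, with CD41 sp for Runx1 and Mef2c, and below CD41 sp and DN for Gata1 and Klf1; Bcl11a is highest in DP.

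Called against all 3 other non-induced fractions in 1 direction were 155 higher (1.62%) and 65 lower (0.678%) genes, 220 in all. Without the block 85 were left, and with median scaling 61 higher and 8 lower (88.4% higher, beside 70.5%). The 10 higher genes named are those whose smallest difference was largest, and 3 of them, Lyz, Ccl3 and Fcgr3, are on the myeloid list. Lyz stood at 10.12 ± 0.40 in DP, beside 6.36 ± 0.12 in VE sp, 7.03 ± 0.19 in CD41 sp and 4.80 ± 0.21 in DN, and its smallest difference, from CD41 sp, was 3.09 ± 0.19 (adjusted p = 2.85e-10). The related Lyzs exceeded CD41 sp by 2.47 ± 0.19 (adjusted p = 7.24e-09, detected on 1 of 3 CD41 sp arrays). Ccl3 exceeded VE sp by 5.47 ± 0.32 (adjusted p = 5.44e-10, detected on 1 of 3 VE sp arrays) and CD41 sp by 2.37 ± 0.32 (adjusted p = 1.16e-05), and Fcgr3 by 3.03 ± 0.28 (adjusted p = 1.6e-07) and 2.21 ± 0.28 (adjusted p = 5.39e-06). Lilrb4, an inhibitory receptor of myeloid cells, was at least 5.62-fold higher (adjusted p = 2.95e-07) against CD41 sp and exceeded VE sp by 2.70 ± 0.29 (adjusted p = 7.98e-07, detected on 1 of 3 VE sp arrays). F13a1, Alox5ap, Slco4a1 (an organic anion carrier), Stat4 (a signal transducer of interleukin 12) and Bcl11a completed them, with smallest differences of 1.94 to 2.40. Bcl11a stood at 7.27 ± 0.43 in DP, beside 5.33 ± 0.60 in VE sp, 5.05 ± 0.31 in CD41 sp and 5.11 ± 0.10 in DN.

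The 10 genes furthest below all 3 fractions were Eml1, Rragd, Epb4.9, Acta2, Phlda2, Slc1a3, Gpc1, Pls3, Prkwnk4 and Bex2, with smallest differences of -1.09 to -1.70. Epb4.9, the red cell membrane protein dematin, differed from VE sp by -1.56 ± 0.28 (adjusted p = 0.000303) and from CD41 sp by -2.45 ± 0.28 (adjusted p = 1.38e-06). Acta2 differed from VE sp by -1.65 ± 0.35 (adjusted p = 0.00136, detected on 2 of 3 DP arrays) and from CD41 sp by -1.53 ± 0.35 (adjusted p = 0.00233, detected on 2 of 3 DP arrays). Gpc1, a heparan sulfate proteoglycan, differed by -2.49 ± 0.25 (adjusted p = 5.51e-07) and -1.30 ± 0.25 (adjusted p = 0.000645). Phlda2, with a smallest difference of -1.46, lost the call against all 3 without DP array 3 or CD41 sp array 1 (largest adjusted p of the 3 comparisons 0.099 and 0.064).

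Whether induction of ICN1 changed the DP to DN difference was tested as the induced minus the non-induced difference. The term was called for 57 genes (0.594%), 14 higher (0.146%) and 43 lower (0.448%), and 800 genes had an unadjusted p under 0.05. In the induced cells 3403 genes (35.5%) differed between DP and DN. Of the genes called in both conditions, 2669 of 2677 had 1 sign. Induction came with doxycycline, and the 2 cannot be told apart. Without DP array 1, DP array 2 or DN array 1 of the non-induced cells the term was called for 32, 33 and 35 genes. Without the block it was called for 13, and with median scaling for 0 higher and 4 lower genes.

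Nrarp had the smallest p, with a change of -2.81 ± 0.28 (adjusted p = 3.16e-05), and stood at 9.61 ± 0.61 in non-induced and 9.71 ± 0.28 in induced DP, and 7.62 ± 0.41 in non-induced and 10.54 ± 0.66 in induced DN. Gja4 changed by -3.13 ± 0.38 (adjusted p = 0.00015), at 11.64 ± 0.74 in non-induced and 10.67 ± 0.51 in induced DP, and 5.44 ± 0.47 in non-induced and 7.60 ± 0.22 in induced DN. Col18a1 changed by -1.87 ± 0.22 (adjusted p = 0.00015), at 13.83 ± 0.46 in non-induced and 13.87 ± 0.41 in induced DP, and 11.22 ± 0.30 in non-induced and 13.13 ± 0.48 in induced DN. In these 3 genes the induced DN cells were brighter than the non-induced ones, and Nrarp and Col18a1 were nearly level in DP. Sox18 changed by -1.84 ± 0.27 (adjusted p = 0.00139), at 11.39 ± 0.24 in non-induced and 10.12 ± 0.54 in induced DP, and 4.93 ± 0.21 in non-induced and 5.50 ± 0.06 in induced DN. Heyl, a Notch target, was not detected in DP in either condition nor in non-induced DN, but was detected on all 3 induced DN arrays. Rerg, a Ras-related growth regulator, changed by -1.89 ± 0.19 (adjusted p = 3.16e-05), also with brighter induced DN cells. The collagen Col6a1 was not detected on any DP array of either condition, and read 5.33 ± 0.28 in non-induced and 7.39 ± 0.56 in induced DN. Dcn, the proteoglycan decorin, was not detected in DP either, and was detected on 3 non-induced and 1 induced DN arrays. The term was called for both (adjusted p = 0.000795 and 0.00015), but no size of change can be read from it, since the DP values lie at background.

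**Figure D5:**
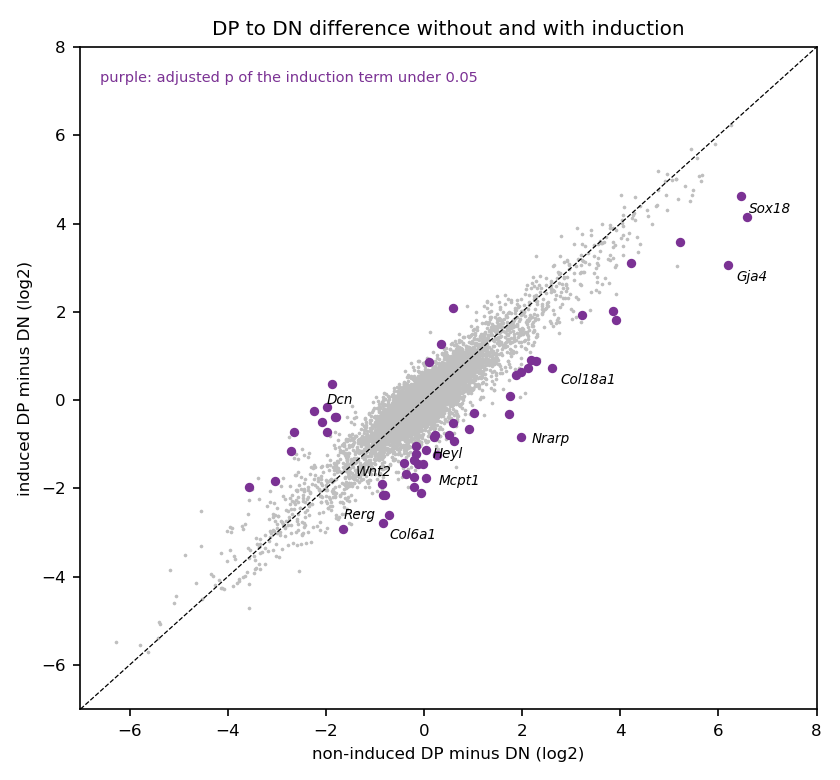
DP minus DN difference of every tested gene without induction (x axis) and with induction of ICN1 (y axis), both in log2 units, with the dashed line of equality. The 57 genes whose difference changed (purple) include Nrarp, Gja4, Sox18 and Col18a1 below the line and Dcn above it; most genes lie along the line.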

How the data were processed

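RNA of sorted day 6 embryoid body cells was labelled with biotin and hybridised to Illumina mouse bead arrays. Per the file headers, the deposited tables hold the mean bead intensity of 25697 probes without normalization, with a detection p-value for each probe on each array. The authors' own processed intensity values, whose normalization no source used here gives, served as an alternative. All 24 arrays were background-corrected and quantile-normalized with limma 3.58.1 (neqc, offset 16, in R 4.3.3) and set on the log2 scale. A probe was kept where some group had it detected at p under 0.05 on each of its 3 arrays (12894 probes), and the probe with the highest mean stood for each symbol, which gave 9591 genes of 18120 on the array. Symbols are those of the array design, some of them old, and 9317 matched RefSeq. limma's linear model held the 8 group means and the replicate number as a block (14 residual degrees of freedom), with p-values adjusted by Benjamini-Hochberg over all genes and called under 0.05.

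The block was used because each replicate number is a table of its own and the comparison was defined as paired. Deviations from the group means of same-numbered DP and DN arrays correlated at 0.52, 0.539 and 0.568, and those of differently numbered arrays at -0.142 to -0.353. Deviations from a mean cancel out within a group, so the positive values force negative ones and the latter add no evidence. The fit without the block is an alternative, as are another scaling, the filters, the offset, fewer arrays in the fit, array weights and leaving out each array. No 2 arrays held identical values. The number of arrays limits the precision.

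Where a group never detected a gene, its difference is only a bound, which compares the mean of the other group with the higher, on each array, of the dim probe's own signal and the lowest signal among detected probes. Genes were named by rule: the sort markers, the 15 largest rises and falls that had 1 sign in all 3 pairs, the leading called and brightest uncalled members of each of 33 lists, the measured members of the short lists of receptors, transcription factors and Notch genes, the 10 smallest p of the induction term, and the 10 leading genes in each direction against all 3 fractions. Names that are only clone identifiers were passed over. Some genes that the rule names are not reported here. The members and lists were chosen with earlier results of these data known. Tests were tried on simulated data.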

Additional observations from a re-analysis of the deposited data

Results flagged for a closer look

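The induction term, the induced minus the non-induced DP to DN difference, is drawn out because the effect of the sort was tested and found to differ between the conditions for 57 genes. Among the 10 with the smallest p, the fitted term was -2.81 for Nrarp, -1.89 for Rerg, -1.81 for Mcpt1 and -1.87 for Col18a1. It was -3.13 for Gja4, -1.94 for Col6a1, -1.84 for Sox18, -1.42 for Heyl and -1.30 for Wnt2, and 1.44 for Dcn. Mcpt1, a mast cell protease, and Wnt2, a Wnt ligand, were detected on all 3 induced DN arrays and on 0 and 1 of the non-induced DN arrays. Col6a1, Heyl, Wnt2, Mcpt1 and Dcn were each undetected on every array of at least 1 of the 4 groups, so their values are fitted differences that rest partly on background and are not sizes of change.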

How the results depend on the processing

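With the numbers left unpaired (no replicate block), the count of genes called in DP against DN went from 3774 to 2122, all of them among the 3774 and in the same direction. It went to 979 against VE sp, 1181 against CD41 sp, 85 against all 3 fractions and 13 for the induction term. Calls of Hhex (adjusted p = 0.0528), Gfi1 (0.0593), Itgb3 (0.072), Ddit3 (0.151), Apoe (0.236) and Mest (0.294) were lost, with Adam17, Cgnl1, Ephb4, Hoxa2, Hoxb7, Hoxd4, Klf4, Ncstn and Rerg. For the induction term, those of Sox18 (0.0611), Rerg (0.0821) and Col18a1 (0.153) were lost. Median scaling gave 1761 genes, 996 higher and 765 lower (56.6% higher), 755 against VE sp, 900 against CD41 sp, 69 against all 3 and 4 for the induction term, and 1757 of the 3774 calls were kept. It ended the calls of Cdc6 (0.0593), Fzd10 (0.0597), Sparc (0.0631) and Ptgis (0.12). Of those lost without the block, Mest (0.104), Adam17, Cgnl1, Ephb4, Hoxa2, Hoxb7, Hoxd4, Klf4, Ncstn and Rerg were lost here too. Hhex, Gfi1, Itgb3, Ddit3 and Apoe kept theirs. The median of ribosomal genes turned from 0.06 to -0.22 under median scaling. The induction terms of Mcpt1, Sox18, Col18a1, Heyl, Rerg, Dcn and Wnt2 were not called under it (0.0739 to 0.258). Among the genes below all 3 fractions, Phlda2 and Slc1a3 were lost under both, and Bex2, Prkwnk4 and Pls3 under median scaling (0.0799 to 0.15). The stricter filter gave 37 genes for the induction term. Calls were lost in other alternatives too. Adam17, Cgnl1, Hoxa2 and Ncstn lost theirs with only the 6 arrays, and Adam17, Cgnl1 and Ncstn with the 12 non-induced arrays. The authors' values lost Cgnl1, Hoxa2, Hoxb7 and Hoxd4. Offset 50 lost Calcrl (adjusted p = 0.0671), Cgnl1, Hoxa2 and Hoxb7, and no filter on dim probes lost Hoxa2 and Klf4. Some genes not called were gained. With only the 6 DP and DN arrays and with array weights these were Myb (adjusted p = 0.0134 and 0.0202), Selp (0.0231 and 0.021), Tubb1 (0.00981 and 0.0378), Hes1 (0.0172 and 0.0327), Il4ra (0.0484 and 0.0137), Csf1r (0.0134 and 0.00928) and Hey1 (0.0283 and 0.0178). Myb was also gained with the 12 non-induced arrays (0.0189) and Il4ra with the authors' values (0.0306), and Csf2ra (0.0277), Cxcr4 (0.00912), Foxc2 (0.00864) and Podxl (0.0312) with array weights alone. Of these gained genes, Hes1, Hey1, Cxcr4 and Foxc2 were lower in DP and the rest higher. The cause was not tested. Leaving out 1 array gave 2982 to 3320 genes against DN, 1515 to 2014 against VE sp, 1895 to 2219 against CD41 sp, 32 to 60 for the induction term and 151 to 218 against all 3. The other alternatives stayed within 1.5 times each count, for example 3858 with the authors' values, and no call of the 3774 turned direction under any alternative run. Signals near background limit what can be said of undetected genes.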
